A study of Mus musculus with 10 samples.

Results

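MHC class I molecules carry peptides from inside a cell to its surface, where CD8+ T cells and natural killer cells read them. The genes described here are 10 that make this machinery in the mouse: B2m, which encodes the light chain shared by class I molecules, the heavy-chain genes H2-K1, H2-D1, H2-Q4, H2-Q6, H2-Q7 and H2-T23, the peptide transporter genes Tap1 and Tap2, and Nlrc5, the transactivator of class I genes. They were chosen by symbol with the fold changes and calls between transgenic and wild-type muscle already known, which are therefore the measured values that chose them, so that their values are given below as a description and without tests. All 10 were found among the 15883 genes of the count table, each in 1 row, and all 10 were among the 13338 genes with enough reads to be tested. The lowest count of any of them in any library was 20 reads.

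The libraries came from biceps femoris, a hindlimb skeletal muscle. The mice were C57BL/6J males, 5 weeks old, that had been kept on normal chow and fasted for 16 h. In 5 of the libraries the mice carried a Zfp407 transgene, an extra copy of a gene for a zinc finger protein, and in the other 5 they were wild type. Neither the transgene's promoter nor the number of founder lines is given in the sources used here. The table's columns name the group but not the mouse, so libraries are numbered here as transgenic 1 to 5 and wild type 1 to 5.

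The transgenic libraries held 15162400 to 19047834 counts and the wild-type libraries 13530367 to 17814900. Zfp407 itself had 489 ± 124 CPM (reads of a gene scaled to library size) in transgenic muscle, against 22.9 ± 1.73 CPM in wild-type muscle (SD, n = 5 each), which matched the labels of all 10 libraries. Here and below CPM values are scaled for library composition by TMM, the trimmed mean of M values. The rows Lars2, Gm15564 and Gm15662 together took 9.62% to 17.3% of the counts in transgenic libraries and 14.3% to 33.9% in wild-type libraries. Muscle fibre markers summed to 68980 to 101800 CPM in transgenic libraries and 77500 to 104600 CPM in wild-type libraries, so that the labelled tissue was present in every library.

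In the pathway, proteasomes cut cytosolic proteins into peptides, and the transporter made of Tap1 and Tap2 pumps them into the endoplasmic reticulum. There a heavy chain paired with B2m is held by chaperones until a peptide fits. H2-K1 and H2-D1 are the classical heavy chains of C57BL/6 mice, while H2-Q6 and H2-Q7 encode Qa-2 and H2-T23 encodes Qa-1, nonclassical molecules with more limited peptide choice. Interferons raise class I expression through STAT and IRF factors and through Nlrc5, which is recruited to class I promoters by DNA-bound partners. Resting muscle fibres are known for low class I levels, while endothelial and immune cells within muscle express these genes strongly.

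The promoters of the light chain, of H2-K1 and H2-D1 and of the 3 Q-region genes are shown. These genes stood higher together in transgenic muscle while their levels and fold changes differed. H2-T23 also stood higher, with a level per kilobase above those of the Q-region genes in both groups, but its window is not printed. Each is the 200 bases before the RefSeq start on GRCm38.p6, read 5′ to 3′ on the gene's own strand. They lie at chr2:122147487-122147686 on the plus strand for B2m, chr17:34000348-34000547 on the minus strand for H2-K1, and chr17:35262894-35263093 on the plus strand for H2-D1. The 3 windows of the Q region, all on the plus strand, are chr17:35379417-35379616 for H2-Q4, chr17:35424650-35424849 for H2-Q6 and chr17:35438955-35439154 for H2-Q7. Capitals mark the letters GGGATTCCC on either strand (a kappaB site), AANTGAAA or its reverse complement (the core of an interferon-stimulated response element), CCAAT or ATTGG (the letters of an NF-Y site) and TGACG on either strand (the core of the X2 box, as in cyclic AMP response elements).
B2m: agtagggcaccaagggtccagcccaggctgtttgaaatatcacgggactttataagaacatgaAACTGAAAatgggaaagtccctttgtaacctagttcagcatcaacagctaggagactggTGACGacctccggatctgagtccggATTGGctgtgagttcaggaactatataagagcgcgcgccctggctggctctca
H2-K1: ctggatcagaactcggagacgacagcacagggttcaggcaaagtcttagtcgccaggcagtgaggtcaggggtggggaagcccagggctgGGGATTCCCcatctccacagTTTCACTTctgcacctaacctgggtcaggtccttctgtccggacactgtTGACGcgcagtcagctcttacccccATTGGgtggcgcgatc
H2-D1: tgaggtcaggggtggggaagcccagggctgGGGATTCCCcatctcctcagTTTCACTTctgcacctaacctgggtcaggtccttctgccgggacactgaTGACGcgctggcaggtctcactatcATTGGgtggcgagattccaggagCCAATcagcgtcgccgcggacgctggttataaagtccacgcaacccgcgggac
H2-Q4: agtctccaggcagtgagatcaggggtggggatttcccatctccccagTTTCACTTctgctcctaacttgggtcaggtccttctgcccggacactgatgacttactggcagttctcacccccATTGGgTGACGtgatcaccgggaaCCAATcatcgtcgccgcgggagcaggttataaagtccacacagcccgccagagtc
H2-Q6: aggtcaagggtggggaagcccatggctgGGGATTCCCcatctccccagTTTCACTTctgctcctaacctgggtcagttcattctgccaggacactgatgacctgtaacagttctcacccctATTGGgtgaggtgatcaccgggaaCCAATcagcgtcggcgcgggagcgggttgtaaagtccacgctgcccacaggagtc
H2-Q7: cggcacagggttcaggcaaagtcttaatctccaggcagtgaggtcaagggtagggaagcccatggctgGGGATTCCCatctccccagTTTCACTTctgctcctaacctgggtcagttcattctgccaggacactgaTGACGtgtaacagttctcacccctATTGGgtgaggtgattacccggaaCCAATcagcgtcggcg

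The kappaB letters stood in H2-K1, H2-D1, H2-Q6 and H2-Q7, with their first base 110, 170, 172 and 132 bases before the start. These exact letters were in neither B2m nor H2-Q4, and other spellings of a kappaB site were not searched for. The same letters were found in 70 of 32851 mouse promoter windows of this length, or 0.213%. The interferon letters stood in all 6 printed windows, at 137 bases before the start in B2m and 90 to 153 bases before it in the heavy chains, and in 4.42% of all windows. CCAAT or ATTGG was also in all 6, and in 29.3% of all windows, and TGACG was in all but H2-Q6, and in 15.7% of all windows. In B2m, H2-K1, H2-D1 and H2-Q7 TGACG lay before ATTGG. In H2-Q4 it lay after ATTGG, so its place there was not that of the X2 letters in the others. H2-K1, H2-D1 and H2-Q7 held all 4 motifs, and 4 of the 32851 windows did in all, these genes' included. A gene can have more than 1 window, as H2-K1 has 2, so these 4 windows need not belong to 4 genes. The H2-T23 window held CCAAT alone and the Tap1 window TGACG alone, and neither is printed. The interferon letters were thus in every printed window but not in every heavy-chain window searched. The motif letters were chosen after these promoters had been read, matches are a description of letters and not of bound sites, and no motif overlapped another. Over 160 aligned bases the H2-Q6 and H2-Q7 windows were 97.5% identical, and the H2-K1 and H2-D1 windows were 91.4% identical over 140.

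The light chain was the most abundant of the 10 transcripts. B2m (chr2:122147686-122153083, GRCm38, plus strand) had 132, 116, 94.2, 96.8 and 158 CPM in transgenic libraries 1 to 5, against 95.5, 79.0, 67.8, 66.0 and 47.1 CPM in wild-type libraries 1 to 5. The groups overlapped only in that wild-type library 1 lay just above transgenic library 3. The means were 119 ± 26.6 CPM in transgenic and 71.1 ± 17.8 CPM in wild-type muscle (SD, n = 5 each), a log2 fold change of 0.75 ± 0.19 (SE) from the edgeR fit, or 1.68-fold. In bulk muscle, more cells of a type and more RNA per cell cannot be told apart.

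Both classical heavy chains stood higher by about as much as the light chain. H2-K1 (chr17:33996017-34000347, minus strand) had 65.5, 69.85, 58.2, 47.5 and 93.9 CPM in transgenic libraries 1 to 5, against 52.1, 46.4, 33.1, 32.9 and 29.5 CPM in wild-type libraries 1 to 5. Transgenic library 4 was the 1 transgenic library below the highest wild-type value. H2-D1 (chr17:35262730-35267499, plus strand) had 87.8, 78.3, 89.99, 66.1 and 98.3 CPM in transgenic libraries 1 to 5, against 74.4, 55.3, 52.2, 41.7 and 39.0 CPM in wild-type libraries 1 to 5. Here again transgenic library 4 lay under wild-type library 1 and the other transgenic libraries lay above all wild-type libraries. The log2 fold changes were 0.79 ± 0.20 for H2-K1 and 0.68 ± 0.17 for H2-D1 (SE), or 1.73-fold and 1.6-fold.

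The Q-region genes had lower levels, and H2-Q7 and H2-Q6 had larger fold changes, while H2-Q4 lay nearer to the classical genes in fold change. H2-Q7 (chr17:35439155-35443773, plus strand) had 5.62, 6.47, 4.18, 4.49 and 12.55 CPM in transgenic libraries 1 to 5, against 2.60, 1.78, 1.665, 1.89 and 1.44 CPM in wild-type libraries 1 to 5. Every transgenic library lay above every wild-type library, and transgenic library 5 stood far above the other 4. Its log2 fold change of 1.83 ± 0.31 (SE), or 3.55-fold, was the highest of the 10 genes. H2-Q6 (chr17:35424850-35430055, plus strand) had 3.17, 5.635, 5.57, 3.545 and 10.55 CPM in transgenic libraries 1 to 5, against 2.60, 1.78, 1.165, 1.56 and 1.805 CPM in wild-type libraries 1 to 5. The groups did not overlap, though transgenic library 1 and wild-type library 1 were close, and the log2 fold change was 1.68 ± 0.33 (SE), or 3.2-fold. H2-Q4 (chr17:35379617-35385290, plus strand) had 8.12, 8.10, 7.28, 7.09 and 15.6 CPM in transgenic libraries 1 to 5, against 5.28, 4.15, 4.94, 4.88 and 4.26 CPM in wild-type libraries 1 to 5. The groups did not overlap, transgenic library 5 again stood apart, and the log2 fold change was 0.97 ± 0.22 (SE), or 1.96-fold.

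The Qa-1 gene was closer to the classical genes in its fold change. H2-T23 (chr17:36029773-36032855, minus strand) had 15.1, 12.6, 13.8, 9.93 and 16.0 CPM in transgenic libraries 1 to 5, against 9.29, 8.89, 8.602, 5.66 and 5.92 CPM in wild-type libraries 1 to 5. The groups did not overlap, and the log2 fold change was 0.81 ± 0.18 (SE), or 1.76-fold.

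The transporter subunits differed from each other. Tap1 (chr17:34187553-34197225, plus strand) had 7.06, 7.78, 7.91, 4.63 and 13 CPM in transgenic libraries 1 to 5, against 3.47, 3.05, 3.885, 2.41 and 3.03 CPM in wild-type libraries 1 to 5. No transgenic library reached down to the wild-type values, and the log2 fold change was 1.34 ± 0.24 (SE), or 2.53-fold. Tap2 (chr17:34203527-34216321, plus strand) had 3.95, 4.33, 3.67, 3.07 and 5.73 CPM in transgenic libraries 1 to 5, against 3.31, 3.64, 2.775, 2.73 and 2.60 CPM in wild-type libraries 1 to 5. Its groups overlapped at transgenic library 4, and its log2 fold change of 0.46 ± 0.19 (SE), or 1.38-fold, was the lowest of the 10.

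The transactivator Nlrc5 (chr8:94434356-94527272, plus strand) had 4.73, 6.89, 3.67, 4.065 and 12.3 CPM in transgenic libraries 1 to 5, against 2.76, 1.78, 1.498, 2.02 and 2.09 CPM in wild-type libraries 1 to 5. The groups did not overlap and transgenic library 5 was the highest. The log2 fold change was 1.64 ± 0.33 (SE), or 3.12-fold, on 58 to 191 reads in transgenic libraries and 21 to 35 reads in wild-type libraries.

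**Figure D1:**
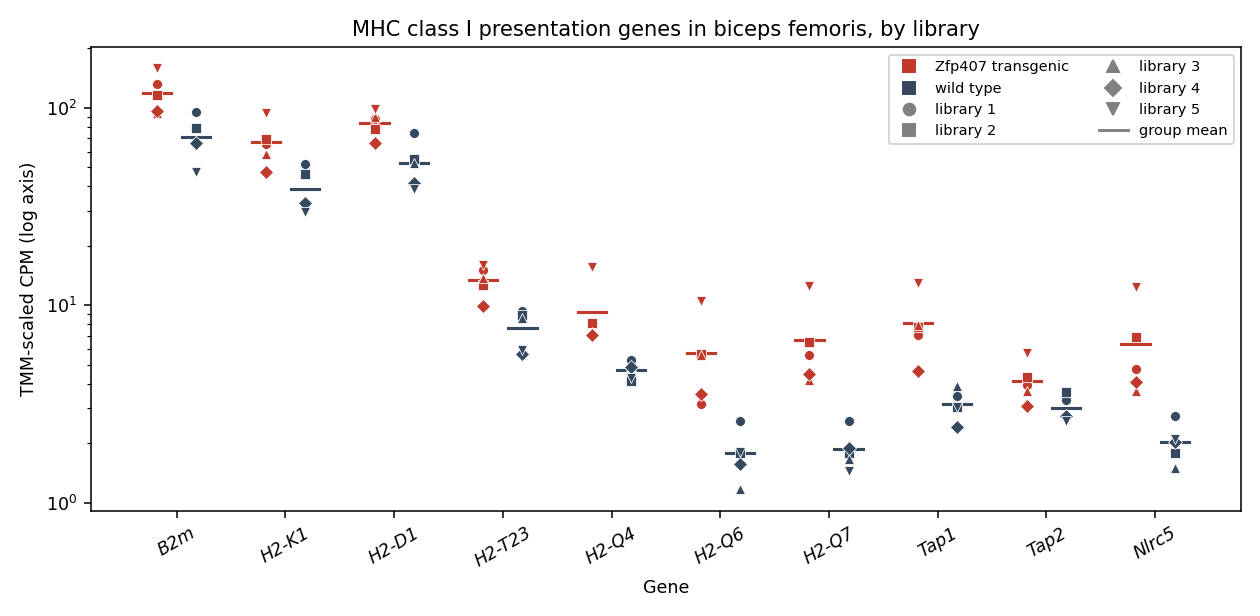
TMM-scaled CPM on a log axis for the 10 class I genes, with transgenic libraries (red) left of wild-type libraries (dark blue), a marker shape for each library number and a line at the group mean. All 10 genes are highest in transgenic library 5 among the transgenic libraries, and the groups do not overlap for H2-T23, H2-Q4, H2-Q6, H2-Q7, Tap1 and Nlrc5.

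Counted together, 9 of the 10 genes were called higher in transgenic muscle by edgeR at an adjusted p of 0.05, Tap2 being the exception, and 0 were called lower. Of all genes tested, 5.33% were called, 4.28% higher and 1.05% lower. In 6 of the 10 genes all transgenic libraries lay above all wild-type libraries, against 5.14% of all genes tested, and in 0 all lay below, against 2.9% of all genes tested. Because the genes were chosen with this contrast known, nothing is read from these shares. The median log2 fold change of the 10 was 0.891, beside 0.00273 over all genes tested. The authors' deposited table had the same 9 genes under an adjusted p of 0.05 and Tap2 above it, where 5.52% of its genes were past that threshold and higher. The calls for H2-Q6, H2-Q7, H2-T23, Tap1 and Nlrc5 were kept when any single library was left out. Those for B2m, H2-K1 and H2-D1 were lost without transgenic library 1, 2 or 5 or without wild-type library 2, 3, 4 or 5, and that for H2-Q4 without wild-type library 2, 3, 4 or 5, so that the count of called genes was as low as 5.

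Levels between genes are compared per kilobase of merged exons. In transgenic muscle B2m had 139 ± 30.9 CPM per kb, followed by H2-K1 at 40.5 ± 10.4, H2-D1 at 40.0 ± 5.86, H2-T23 at 9.16 ± 1.61, H2-Q4 at 5.16 ± 2.01 and H2-Q7 at 4.34 ± 2.22 CPM per kb (SD, n = 5). Tap1 at 2.74 ± 1.03, H2-Q6 at 2.73 ± 1.41, Tap2 at 1.21 ± 0.289 and Nlrc5 at 0.779 ± 0.438 CPM per kb came next. In wild-type muscle the order of levels was B2m at 82.6 ± 20.7, H2-D1 at 25.0 ± 6.68, H2-K1 at 23.4 ± 5.94, H2-T23 at 5.21 ± 1.18 and H2-Q4 at 2.62 ± 0.267 CPM per kb. It went on with H2-Q7 at 1.22 ± 0.284, Tap1 at 1.07 ± 0.187, Tap2 at 0.875 ± 0.129, H2-Q6 at 0.855 ± 0.251 and Nlrc5 at 0.250 ± 0.0577 CPM per kb. In both groups H2-K1 and H2-D1 lay within each other's SD. So did H2-Q4 and H2-Q7, and Tap1 and H2-Q6, in transgenic muscle, and H2-Q7 and Tap1, and Tap2 and H2-Q6, in wild-type muscle.

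The heavy-chain pool was made up mostly of the classical genes in both groups. Of the reads counted over the 6 heavy-chain genes, H2-D1 took 45.7 ± 4.1% in transgenic and 48.7 ± 2.2% in wild-type libraries, and H2-K1 took 35.7 ± 2.6% in transgenic and 36.1 ± 2.4% in wild-type libraries (SD, n = 5 each). The share of H2-T23 was 7.29 ± 0.64% in transgenic and 7.19 ± 0.88% in wild-type libraries. That of H2-Q4 was 4.87 ± 0.9% in transgenic and 4.54 ± 0.92% in wild-type libraries. H2-Q7 took 2.33% to 5.08% of these reads in transgenic libraries and 1.5% to 2.13% in wild-type libraries, with no overlap. H2-Q6 took 1.71% to 4.27% in transgenic libraries and 1.15% to 2.2% in wild-type libraries, and the 2 ranges overlapped. H2-Q4, H2-Q6 and H2-Q7 together made 11.3 ± 2.6% in transgenic and 7.98 ± 1.3% in wild-type libraries, a range of 9.13% to 15.7% against 6.51% to 9.4%.

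**Figure D2:**
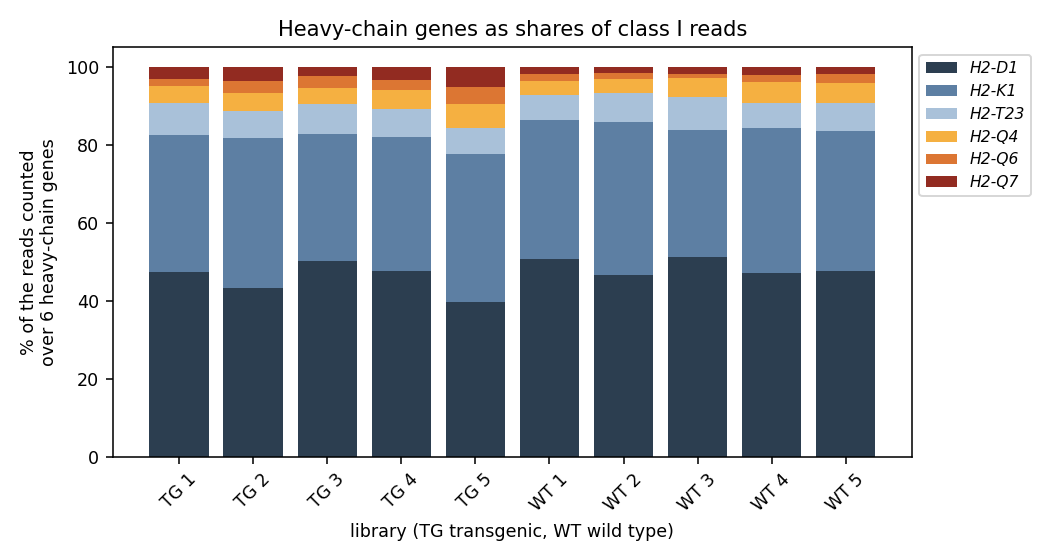
Stacked bars of the 6 heavy-chain genes as a percentage of the reads counted over all 6 in each library, transgenic libraries first. H2-D1 and H2-K1 fill most of every bar, and H2-Q7 is thicker in each transgenic library (2.33% to 5.08%) than in any wild-type library (1.5% to 2.13%).

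Near-identical copies limit how far single heavy chains can be separated. Of all 50-base stretches of their GENCODE M21 transcripts, 32% in H2-Q6 and 34.9% in H2-Q7 also occurred in another gene, against 24.3% in H2-Q4, 28.8% in H2-T23, 14.3% in H2-D1 and 8.79% in H2-K1. None in B2m or Nlrc5 did. Among 100-base stretches the shares were 10.8% in H2-Q6, 16.4% in H2-Q7, 7.28% in H2-T23, 4.64% in H2-D1, 2.66% in H2-Q4 and 0% in H2-K1. Summing H2-Q6 and H2-Q7 gave a log2 fold change of 1.76 ± 0.29, and summing all 6 heavy chains gave 0.80 ± 0.18 (SE). Without stranded counting stated, reads from genes that overlap cannot be told apart: H2-Q4 shares 377 exonic bases with the antisense gene Gm11131, Tap1 shares 212 with Psmb9 on the other strand, and Tap2 shares 518 with Gm15821.

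The genes also varied together over the libraries once the difference between groups was removed, though the groups were not correlated separately. With each group's mean removed from log2 CPM, the 45 pairs among the 10 genes had correlations of 0.29 to 0.94 over the 10 libraries, with a median of 0.73, where the members of a pair share the library and its scaling. The mean of these values over the 10 genes was highest in transgenic library 5 (0.66) and lowest in transgenic library 4 (-0.43), and among wild-type libraries it ran from 0.37 in library 1 to -0.22 in library 5. The summed CPM of the 10 genes was 333, 316, 289, 247 and 436 in transgenic libraries 1 to 5, against 251, 206, 178, 162 and 137 in wild-type libraries 1 to 5. Transgenic library 4 thus lay just under wild-type library 1. The wild-type libraries stood in the same order for the share of counts in Lars2, Gm15564 and Gm15662, at 33.9%, 29.3%, 19.9%, 18.2% and 14.3%. The transgenic libraries had 13.8%, 13.6%, 17.3%, 9.62% and 16.8%. With these 3 rows left out of the library sizes, no log2 fold change of the 10 genes moved by more than 0.04. That refit changes the scaling only, and whether class I levels go with this share was not tested.

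Transgenic library 5 weighed most on Nlrc5 and the Q-region genes. Its value was 2.54 times the mean of the other transgenic libraries for Nlrc5, 2.42 times for H2-Q7, 2.36 times for H2-Q6, 2.04 times for H2-Q4 and 1.9 times for Tap1, against 1.22 times for H2-D1 and 1.25 times for H2-T23. The 4 other transgenic libraries averaged 2.77 times the wild-type mean for H2-Q7, 2.51 times for H2-Q6, 2.38 times for Nlrc5, 2.16 times for Tap1 and 1.25 to 1.67 times for the other 6 genes. Without transgenic library 5 the log2 fold changes ran from 0.32 for Tap2 to 1.47 for H2-Q7.

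The 5 other genes whose group-centred log2 CPM was most like the mean of the class I genes, among 8775 genes with at least 5 CPM on average, were Slc25a22 (r = 0.929), Agt (r = 0.929), Etfdh (r = 0.902), Hacl1 (r = 0.892) and Fastkd1 (r = 0.886). These correlations over 10 libraries are a description. None of the 5 was called between groups. The same measure was 0.43 for Alb, 0.37 for Irf1, 0.25 for Pecam1, 0.08 for Irf7, -0.07 for Ptprc and -0.15 for Zfp407.

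The rest of the pathway is described next from lists of genes that are not among the 10, each tested within the same edgeR fit over 13338 genes. Over 7 lists with 48 tested genes, 7 genes were called higher and 0 lower, and the median log2 fold change was 0.0964. The called genes were Psmb10, H2-T24, H2-Q10, Azgp1, Irf9, Stat2 and Ifnar2.

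The proteasome subunits that interferon induces were split from their constitutive counterparts in fold change. Psmb10, a catalytic subunit of the immunoproteasome, rose in transgenic muscle, with 6.28, 5.635, 7.91, 5.81 and 6.63 CPM in transgenic libraries 1 to 5 against 4.88, 3.39, 4.38, 2.86 and 2.89 CPM in wild-type libraries 1 to 5 (log2 fold change 0.81 ± 0.18 SE, edgeR adjusted p = 0.0182). Leaving out wild-type library 2, 4 or 5 ended this call, at an adjusted p between 0.0538 and 0.0658. The other 3 of 4 tested genes of that list did not pass, with log2 fold changes of 0.83 for Psmb8 (edgeR adjusted p = 0.0611), and 0.47 for Psme2 (0.0605) and 0.50 for Psme1 (0.0701), which form the PA28 activator. DESeq2 called all 4. Psmb9 was not analysed here. The constitutive subunits Psmb5, Psmb6 and Psmb7 had log2 fold changes of 0.02 to 0.11 with 0 called, and 0 under an unadjusted p of 0.05 in edgeR and 0 by DESeq2.

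Loading and folding factors stayed nearer to the median of all genes. Of 10 tested, 0 were called by edgeR, 2 had an unadjusted p under 0.05 (1 higher and 1 lower) and DESeq2 called 0. The 2 were Tapbp, the tapasin gene that bridges the transporter and the heavy chain, at 0.48 ± 0.16 (edgeR adjusted p = 0.113), and Uggt1, a glycoprotein folding sensor, at -0.29 ± 0.13 (edgeR adjusted p = 0.27). The median log2 fold change of the list was 0.0774.

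Among other class I genes of the H2 locus, 2 of 5 tested genes rose and 0 fell. An unadjusted p under 0.05 in edgeR was reached by 4 of the 5, all higher. DESeq2, which tested 8, called 3 higher. The median log2 fold change of the 5 was 0.535. H2-T24, a T-region gene, had 5.51, 5.96, 5.95, 4.63 and 5.41 CPM in transgenic libraries 1 to 5 against 4.10, 3.39, 3.05, 3.06 and 2.67 CPM in wild-type libraries 1 to 5. Its groups did not overlap (log2 fold change 0.76 ± 0.15 SE, edgeR adjusted p = 0.0118), and the call was kept when any single library was left out. H2-Q10, which encodes a secreted class I molecule made in liver, had 4.34, 3.77, 2.34, 4.92 and 22.3 CPM in transgenic libraries 1 to 5 against 0.999 to 2.03 CPM in wild-type libraries (log2 fold change 2.27 ± 0.57 SE, edgeR adjusted p = 0.0336). The H2-Q10 call was lost without any 1 of the wild-type libraries, with adjusted p from 0.068 to 0.0946, and its log2 fold change was 1.31 with transgenic library 5 left out. Of the class I-like genes outside the locus, Azgp1, a secreted protein with the class I fold, rose in transgenic muscle, with 3.11, 6.19, 3.80, 10.35 and 40.6 CPM in transgenic libraries 1 to 5 against 0.473 to 1.61 CPM in wild-type libraries (log2 fold change 3.53 ± 0.72 SE, edgeR adjusted p = 0.0119). With transgenic library 5 left out its log2 fold change was 2.42, and the call was kept. The other 4 of 5 tested did not pass in edgeR. Log2 fold changes were 1.14 for the lipid-presenting Cd1d1 and 0.49 for the iron regulator Hfe. They were -0.08 for the neonatal Fc receptor Fcgrt and -0.33 for Mr1, which presents vitamin B metabolites. At an unadjusted p under 0.05 in edgeR, 3 of the 5 were higher and 1 lower. DESeq2 called Cd1d1 (DESeq2 adjusted p = 0.0487) and Hfe (0.0226) higher, along with Azgp1.

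The factors that bind class I promoters had a median log2 fold change of 0.0583. Of 12 tested regulators 0 were called by edgeR, 1 had an unadjusted p under 0.05 and DESeq2 called 1. Nfyb, an NF-Y subunit, stood at -0.19 (edgeR adjusted p = 0.549). Irf1 had a log2 fold change of 0.19. The RFX subunit genes Rfx5, Rfxap and Rfxank, partners of Nlrc5 at class I promoters, lay between -0.13 and 0.08.

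Of 9 tested interferon receptor and JAK-STAT genes, 3 rose and 0 fell. Irf9, the DNA-binding part of the factor that type I interferon activates, had 10.7 to 12.5 CPM in transgenic libraries and 5.63 to 8.33 CPM in wild-type libraries (log2 fold change 0.65 ± 0.13 SE, edgeR adjusted p = 0.0095), and its call was kept without any single library. Stat2, its partner, had 7.29 to 14.2 CPM in transgenic and 3.39 to 5.99 CPM in wild-type libraries (0.83 ± 0.21, edgeR adjusted p = 0.0329), and the call was lost without transgenic library 4 or any wild-type library (adjusted p 0.0521 to 0.0909). Ifnar2, a type I interferon receptor chain, stood at 7.31 to 9.87 CPM in transgenic and 4.55 to 7.29 CPM in wild-type libraries (0.57 ± 0.15, edgeR adjusted p = 0.0439). Its call was lost without transgenic library 1, 3, 4 or 5 or wild-type library 1, 3, 4 or 5 (adjusted p 0.0529 to 0.13). The median log2 fold change of the 9 genes was 0.0898.

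**Figure D3:**
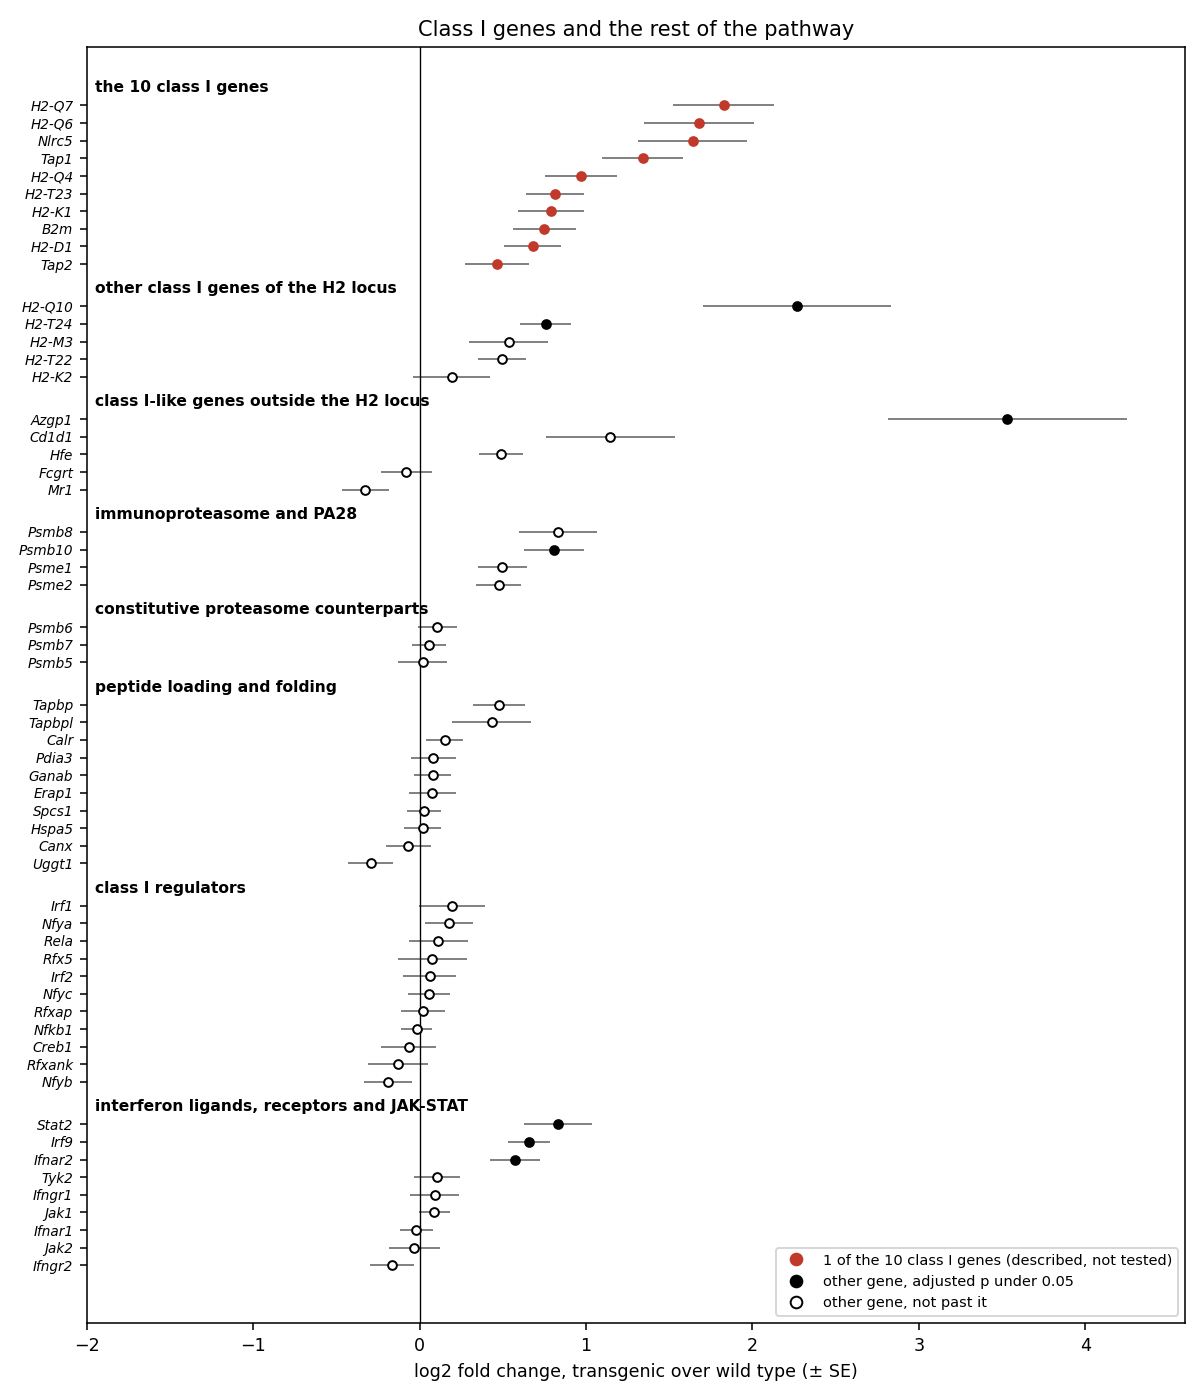
Log2 fold changes of transgenic over wild-type muscle with SE bars for the 10 class I genes (red) and for the other pathway genes reported, filled where the edgeR adjusted p was under 0.05 and open where it was not. The 10 class I genes lie between 0.46 and 1.83. The loading, constitutive proteasome and regulator lists centre near 0 with medians of 0.0774, 0.0547 and 0.0583. The interferon receptor and JAK-STAT list has a median of 0.0898. Medians are higher for the immunoproteasome and PA28 list (0.651), other class I genes of the H2 locus (0.535) and class I-like genes (0.49).

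Genes of 2 neighbouring programmes were also called higher in transgenic muscle. Of 20 interferon-stimulated genes 16 were called higher and 0 lower, with a median log2 fold change of 1.17, among them Irf7 at 1.74 ± 0.22, the antiviral Ifit1 at 1.42 ± 0.21 and Oasl2 at 1.42 ± 0.17 (SE). Their summed CPM was 140 to 257 in transgenic libraries and 65.6 to 89.7 in wild-type libraries. The count of called genes fell to 9 without wild-type library 1, to 9 without transgenic libraries 4 and 5 and to 1 with hepatocyte markers as a covariate. Of 7 tested class II genes, which present peptides from outside the cell, 5 were called higher and 0 lower, among them H2-Eb1 at 0.98 ± 0.20, H2-Ab1 at 0.84 ± 0.18 and the invariant chain gene Cd74 at 0.89 ± 0.21. The class II sum over 10 genes was 216, 231, 163, 108 and 124 CPM in transgenic libraries 1 to 5, against 96.6, 112, 83.8, 76.5 and 73.0 CPM in wild-type libraries 1 to 5, so that it was highest in transgenic libraries 1 and 2, not in library 5. Of these calls 0 were left without transgenic libraries 1 and 2, 1 with leukocyte markers as a covariate, and 2 without transgenic library 1 or 2 or wild-type library 1, 3, 4 or 5. These lists were also chosen with results of these libraries known.

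Markers of other cell types differed between the libraries too. The 18 leukocyte markers summed to 279, 318, 183, 191 and 101 CPM in transgenic libraries 1 to 5, against 167, 183, 154, 91.4 and 95.4 CPM in wild-type libraries 1 to 5. Ptprc, the pan-leukocyte CD45 gene, had 41.9, 60.5, 7.34, 16.6 and 9.07 CPM in transgenic libraries 1 to 5 and 7.58 to 14.0 CPM in wild-type libraries. Transgenic library 5, highest in all 10 class I genes, thus had the lowest leukocyte sum of its group. Of the 13 leukocyte markers tested, 0 were called by edgeR, 7 had an unadjusted p under 0.05, all higher, while DESeq2, which tested all 18, called 4. With 1 library left out, edgeR called 5 markers higher without transgenic library 5 and 1 without transgenic library 3 or wild-type library 2 or 4. The 7 T and NK cell markers in the table summed to 11.4 and 15.9 CPM in transgenic libraries 1 and 2, to 1.52 to 2.27 CPM in the other transgenic libraries and to 1.16 to 2.52 CPM in wild-type libraries. Cd3e was at 0 in 4 libraries and Cd3g in 3.

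Without transgenic libraries 1 and 2 the log2 fold changes of the 10 genes were 0.46 to 1.91 and 5 of them were called. In that fit 548 of all 13549 genes tested were called higher. With the leukocyte markers as a covariate the log2 fold changes of the 10 were 0.49 to 2.03 and again 5 were called. There 590 of all 13338 genes tested were called higher. Endothelial markers, of which 0 of 10 were called by edgeR, 0 had an unadjusted p under 0.05 and DESeq2 called 0, summed to 286 to 386 CPM in transgenic libraries and 327 to 380 CPM in wild-type libraries. Against the mean of these markers the class I genes stood 0.49 to 1.73 higher on the log2 scale.

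Liver transcripts also differed by group. The 19 hepatocyte markers summed to 637, 1053, 564, 1598 and 6465 CPM in transgenic libraries 1 to 5, against 373, 289, 194, 249 and 280 CPM in wild-type libraries 1 to 5. Alb, the albumin gene, had 197 to 3038 CPM in transgenic libraries and 41.4 to 116 CPM in wild-type libraries. Transgenic library 5 was highest in both the hepatocyte sum and the class I sum, while transgenic library 4, the next highest in hepatocyte markers, was the lowest transgenic library in class I. With the hepatocyte markers as a covariate the log2 fold changes were 0.81 ± 0.29 for H2-T23, 0.69 ± 0.29 for H2-D1, 0.51 ± 0.32 for B2m and 0.46 ± 0.32 for H2-K1 (SE). They were 0.85 ± 0.36 for H2-Q7, 0.82 ± 0.35 for Tap1, 0.73 ± 0.42 for H2-Q6, 0.51 ± 0.37 for Nlrc5, 0.22 ± 0.26 for H2-Q4 and 0.11 ± 0.30 for Tap2. None of the 10 was called in that fit, in which 66 of all genes were called higher, and the same fit gave -0.20 ± 0.41 for H2-Q10 and 0.22 ± 0.30 for Azgp1. In the summed markers, and in 16 of the 19 singly, all transgenic libraries lay above all wild-type libraries, so genotype and liver transcripts cannot be told apart. Without transgenic libraries 4 and 5, which held most liver transcripts, the log2 fold changes of the 10 genes were 0.41 to 1.54 and 6 were called. In that fit 430 of all 13648 genes tested were called higher. Of the 19 hepatocyte markers 14 were still called higher there, with a median log2 fold change of 1.89, so the liver difference was not removed.

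**Figure D4:**
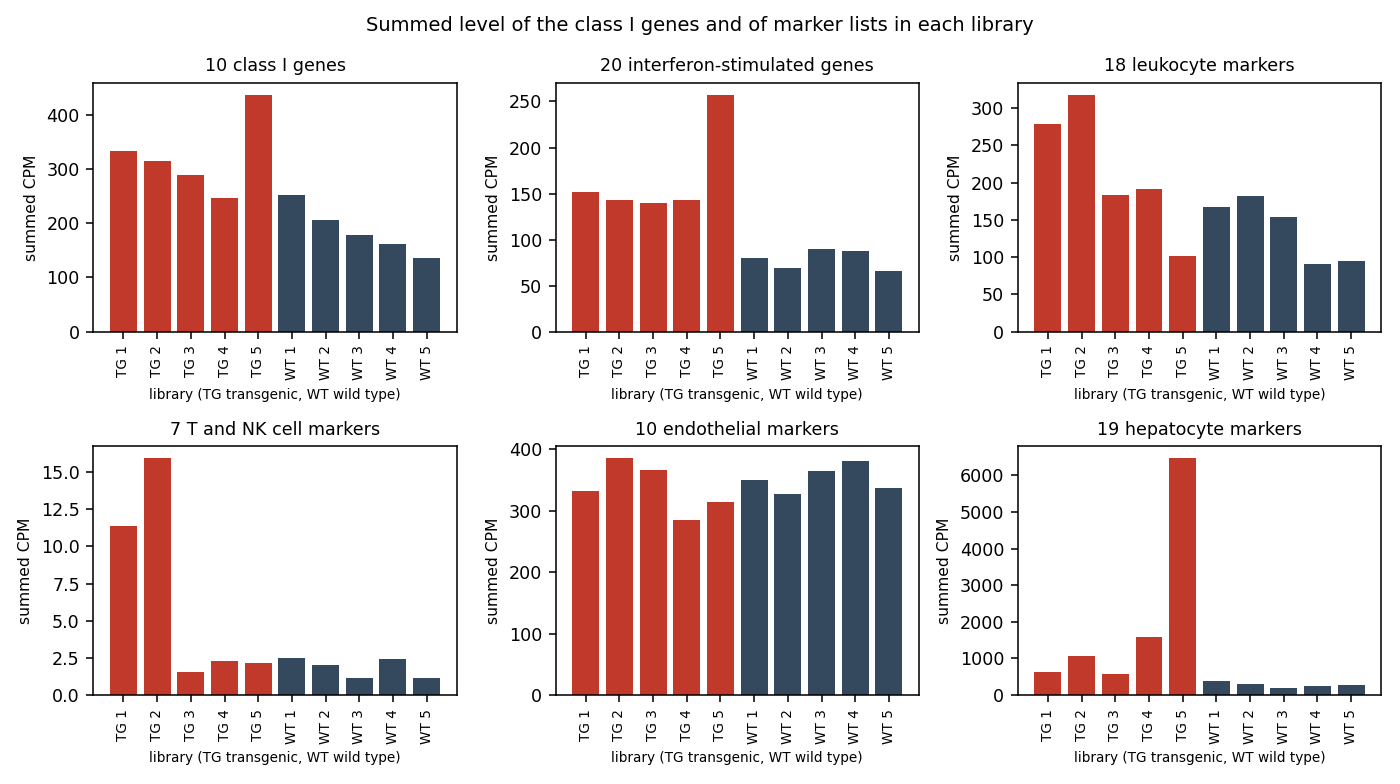
Summed TMM-scaled CPM in each library, transgenic (red) left of wild type (dark blue), for the class I genes, interferon-stimulated genes and 4 lists of cell type markers. The class I sum peaks in transgenic library 5 (436), the leukocyte sum in transgenic library 2 (318) and the hepatocyte sum in transgenic library 5 (6465), while endothelial sums span 286 to 386.

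**Figure D5:**
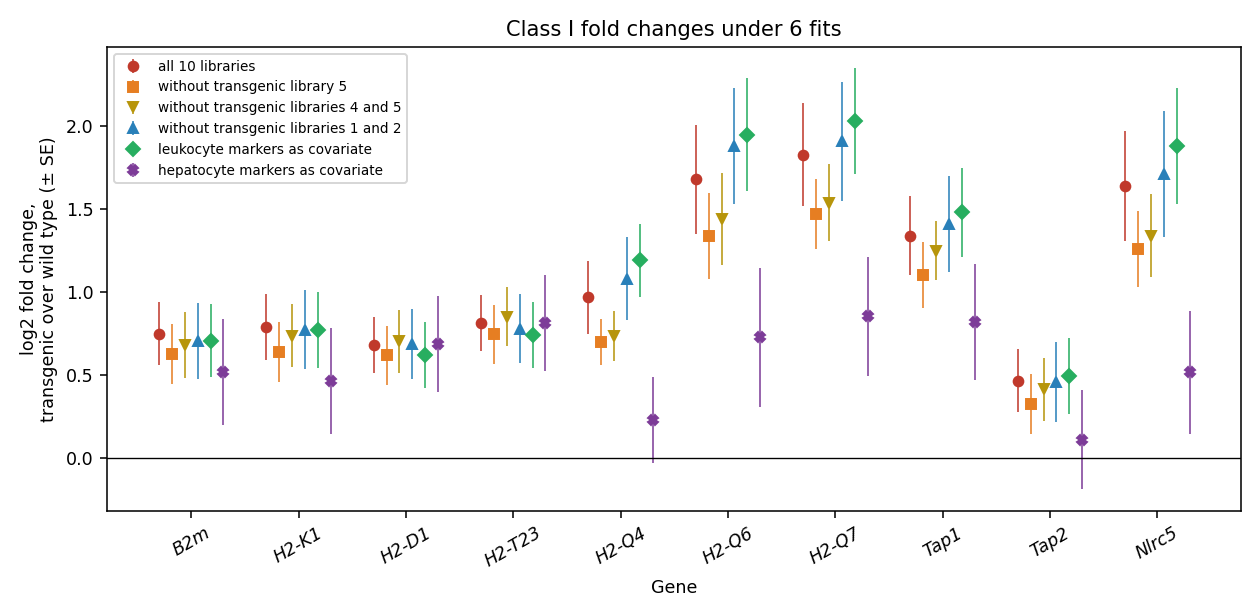
Log2 fold changes of transgenic over wild-type muscle with SE bars for each class I gene under 6 fits. All values are above 0, and those with hepatocyte markers as a covariate run from 0.11 for Tap2 to 0.85 for H2-Q7.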

How the data were processed

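RNA-seq counts were analysed for 5 transgenic and 5 wild-type libraries. The authors used DESeq2 1.10, HTSeq 0.6.1, SAMtools 1.2, Bowtie2 2.2.6, TopHat2 2.1 and the build GRCm38.p4, per the submitters' processing notes, which name no settings for counting or strand and no gene model. The authors deposited raw counts per gene for each library, beside the mean signal over libraries, a log2 fold change with its standard error, a Wald statistic (a score) and p-values per gene.

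Groups were read from the column names, and the series describes separate mice. Low counts were removed by filterByExpr and libraries were scaled by TMM. The main test was the quasi-likelihood test of edgeR 4.0.16 in R 4.3.3 (glmQLFit, glmQLFTest), with no covariate and Benjamini-Hochberg adjustment over 13338 genes at a threshold of 0.05. The SE of a log2 fold change is its size divided by the square root of F. Log2 CPM used a prior count of 2. The test was checked on simulated data. All 20 pairs of libraries within groups differed by more than counting noise (chi-square over its degrees of freedom, lowest 17.5). Coordinates and transcripts are from GENCODE M21, and promoters from RefSeq on GRCm38.p6, with entries for 8 of the 10 genes.

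The 10 genes, the lists and the alternatives were chosen with earlier results of these data known. Named genes are the 10, up to 3 called genes with the smallest p per list (or up to 2 where none was called), Zfp407, Ptprc, Alb and the 5 genes most like the class I profile; other genes were named after their values were seen, and 1 gene the rule takes is not reported here. For the cell type lists that serve as checks only sums and counts are given. Alternatives were other size factors and library sizes, DESeq2 1.42.0, filters, thresholds, calls by the authors' p-values, libraries left out, marker covariates and summed copies. Non-overlap of groups, levels against endothelial markers and a block on column numbers were added after seeing the data.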

Additional observations from a re-analysis of the deposited data

Results flagged for a closer look

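Within the groups of 5 libraries, 8 of 34 gene and group combinations had a highest or lowest library whose gap to its neighbour took more than 0.71 of the group's range, which chance alone gives in about 5% of groups. The 34 are not independent, since they share libraries, and the genes most like the class I profile were picked for following a profile that is highest in transgenic library 5 and wild-type library 1, so their 5 gaps follow in part from that choice. H2-Q4 had 15.63 CPM in transgenic library 5, against 8.12 CPM in the next transgenic library and 7.09 in the lowest. H2-Q7 had 12.55 CPM in transgenic library 5, with 6.47 CPM in the next and 4.18 in the lowest. The hepatocyte marker Alb had 3038 CPM in the same library, with 715 CPM in the next and 197 in the lowest transgenic library. Of the genes most like the class I profile, Agt had 23.81 CPM in transgenic library 5 (next 10.8), Hacl1 had 17.11 CPM (next 9.22) and Fastkd1 had 13.32 CPM (next 10.3). Agt also had 13.63 CPM in wild-type library 1 (next 8.81), and Slc25a22 had 15.67 CPM in wild-type library 1 (next 8.38).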

How the results depend on the processing

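The column numbers 1 to 5 recur in both groups but no source says that they pair mice, and the deviations of same-numbered libraries correlated at -0.036 to 0.17, above 0.1 in 3 of 5 pairs. With the column number as a replicate block, added after seeing the data, 570 genes were higher and 102 lower, 9 class I genes and 7 other pathway genes were called higher, and not every library correlated best with its own number. Of 228 fold changes of the 10 genes under the alternatives, 228 were above 0, 220 lay within 1 SD between libraries (log2 CPM, pooled over groups) of the main value and 8 lay further away. These 8 came from the hepatocyte covariate or from summing all 6 heavy chains. The values reuse the same libraries, and a summed value was entered for each gene in the sum. Because the genes were chosen with this contrast known, nothing is read from the values being above 0. The count of class I genes called higher was 9 in the main analysis, 2 at an adjusted p of 0.01, 5 with transgenic libraries 1 and 2 left out, 6 with transgenic libraries 4 and 5 left out, 5 with the leukocyte covariate and 0 with the hepatocyte covariate, and 5 to 9 with 1 library left out. The 7 other pathway genes called higher became 14 with DESeq2, 13 by the authors' deposited p-values, 1 at 0.01, 4 without transgenic libraries 4 and 5 and 0 with the hepatocyte covariate, and 3 to 8 with 1 library left out. Over all genes 571 were higher and 140 lower, against 899 and 331 with DESeq2, 876 and 282 in the authors' deposited table, 207 and 45 at 0.01, 66 and 5 with the hepatocyte covariate and 56 lower without transgenic libraries 4 and 5. With 1 library left out these ran from 342 to 764 higher and from 92 to 352 lower. The cause of these moves was not tested. Counts of 20 to 35 reads per library in the wild-type group limit the precision for H2-Q6, H2-Q7 and Nlrc5.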
